A study of Mus musculus with 12 samples.

Results

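The genes described here encode acyltransferases that attach fatty acids to lysophospholipids and related glycerolipids in the remodelling of membranes: Lpcat1, Lpcat2, Lpcat3, Lpcat4, Agpat3, Agpat4, Agpat5, Mboat1, Mboat2 and Mboat7. They were taken by symbol from the annotation of the mouse genome GRCm38 and not by a cut on their measured values, although earlier results of these data were known. They are 10 of the 50563 genes in the count table.

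RNA-Seq was performed on the brain cortex of 12 aged mice of the E4FAD strain, with 1 library per mouse. Every mouse, controls included, carried human APOE4 in place of mouse Apoe (APOE4+/+) and the 5xFAD transgenes on 1 allele (5FAD-/+), so no mouse without amyloid pathology or with another APOE isoform was among them. The CTRL group held 7 mice given vehicle by oral gavage, 2 aged 12 months and 5 aged 14 months, and the DPAn-6 group held 5 mice, 2 aged 12 months and 3 aged 14 months. The DPAn-6 mice received the ethyl ester of n-6 docosapentaenoic acid, a long-chain polyunsaturated fatty acid (PUFA), by daily gavage at 700 mg/kg for 3 weeks. Alpha-tocopherol and palmitoyl ascorbic acid were given to both groups as antioxidants. Both groups held both sexes, and which mouse was of which sex is not in the labels. The libraries held between 15208803 and 26520251 counts.

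In membrane phospholipids, a phospholipase can remove the fatty acid from the middle carbon of the glycerol backbone, and an acyltransferase then puts another one there from acyl-CoA. This deacylation and reacylation is known as the Lands cycle, and it helps to set which PUFAs a membrane holds. The enzymes fall into a family of membrane-bound O-acyltransferases (Lpcat3, Mboat1, Mboat2 and Mboat7) and a family related to the enzymes that acylate lysophosphatidic acid (Lpcat1, Lpcat2, Lpcat4, Agpat3, Agpat4 and Agpat5). They differ in the fatty acids they are known to prefer. Lpcat3 and Mboat7 are known for arachidonic acid and Agpat3 for docosahexaenoic acid, whereas Lpcat1, Mboat1 and Mboat2 are better known for saturated or monounsaturated chains. In the brain, such enzymes keep neuronal membranes rich in PUFAs.

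None of the 10 genes passed the test between the groups. By edgeR's quasi-likelihood test, 0 of 10 had an adjusted p under 0.05, against 1.55% of the 15688 genes tested, and 2 of 10 (Mboat1 and Mboat2) had an unadjusted p under 0.05, against 14.5% of all genes tested. Values are given as log2 CPM, in which each count, with 0.5 added, is scaled to a common library total and put on a log2 scale. All 10 genes passed the filter on low counts, and each had at least 48 counts in every mouse. The estimates were positive (higher in DPAn-6) for 7 genes and negative for 3, with a median log2 fold change of 0.045 beside a median of -0.0047 over all genes tested. The median size of the change, regardless of sign, was 0.097 for the 10 genes and 0.11 for all genes tested. The labels do not say whether litters or cages were shared, and the p-values measure the spread between these mice.

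The sequence just upstream of the start is shown for Mboat1 and Mboat2, which had the smallest edgeR p-values and lay in opposite directions. The windows are the 250 bases before the RefSeq start on GRCm38.p6, both on the plus strand, at chr13:30136240-30136489 for Mboat1 and chr12:24831349-24831598 for Mboat2, and they are written 5′ to 3′. Capitals mark the GC box core GGGCGG, which reads CCGCCC on the other strand, and the CCAAT box, which reads ATTGG there, and no matches overlap in these windows.

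Mboat1: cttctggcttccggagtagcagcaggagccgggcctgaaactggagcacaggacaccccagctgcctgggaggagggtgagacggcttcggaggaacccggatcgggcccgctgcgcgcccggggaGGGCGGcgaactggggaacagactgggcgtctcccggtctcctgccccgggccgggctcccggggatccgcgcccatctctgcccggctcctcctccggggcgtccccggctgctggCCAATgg

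Mboat2: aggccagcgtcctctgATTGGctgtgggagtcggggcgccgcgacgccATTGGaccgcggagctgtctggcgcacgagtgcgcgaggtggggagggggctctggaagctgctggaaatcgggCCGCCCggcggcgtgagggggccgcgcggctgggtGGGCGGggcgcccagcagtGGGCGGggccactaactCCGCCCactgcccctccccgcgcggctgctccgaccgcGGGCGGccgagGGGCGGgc

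The Mboat2 window held 6 matches to GGGCGG and 2 to CCAAT, and the Mboat1 window held 1 match to each. Of 32851 mouse promoter windows of the same length, 32.7% held GGGCGG and 33.8% held CCAAT on either strand. Neither window held CACGTG (6.02% of all windows) or TATAAA (12.4%). Both were rich in G and C, with 77.6% for Mboat2 and 73.2% for Mboat1 against a median of 52.4% over all windows. The RefSeq start of Mboat2 lay 720 bases inside the gene as GENCODE draws it, between an upstream first exon and the others. These matches are a description of the letters and were not set against the measured levels.

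Levels of different genes can be compared only per length, and RPKM was therefore computed with the length of each gene's longest coding transcript. Over the 12 mice and on these lengths, Mboat7 had the highest level, with 70.9 ± 3.5 RPKM (SD, n = 12), followed by Agpat3 with 58.0 ± 5.7 and Lpcat4 with 55.3 ± 4.6. Agpat4 was next with 23.5 ± 3.3 RPKM and Lpcat1 with 12.7 ± 1.2. Lower still were Lpcat3 with 7.90 ± 0.72, Lpcat2 with 6.88 ± 0.93, Agpat5 with 4.87 ± 0.40 and Mboat2 with 4.67 ± 0.38. Mboat1 was the lowest with 1.30 ± 0.23 RPKM.

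Most steps of this order held in every mouse. Agpat3 was above Lpcat4 in 6 of 7 CTRL mice and 1 of 5 DPAn-6 mice, and Agpat5 was above Mboat2 in 3 of 7 CTRL mice and 5 of 5 DPAn-6 mice. Lpcat3 was above Lpcat2 in 10 of 12 mice. These neighbours did not keep 1 order in all mice, and the difference in order between the groups was not tested. The other 6 neighbouring pairs kept their order in 12 of 12 mice. The order also depends on the transcript chosen. With the shortest coding transcript in place of the longest, the level of Agpat3 would be 264 RPKM, that of Lpcat1 21.8, that of Agpat5 18.5, that of Mboat2 13.5 and that of Lpcat2 8.87, whereas Mboat7, Lpcat4, Agpat4, Lpcat3 and Mboat1 have 1 coding transcript and would keep their values. The counts, however, are per gene. All exons of Mboat7 together cover 8339 bases, against the 2878 used here. For Agpat3 these lengths are 7790 and 5980 bases, and for Lpcat4 2823 and 2275. The first place of Mboat7 thus depends on the length used.

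**Figure D1:**
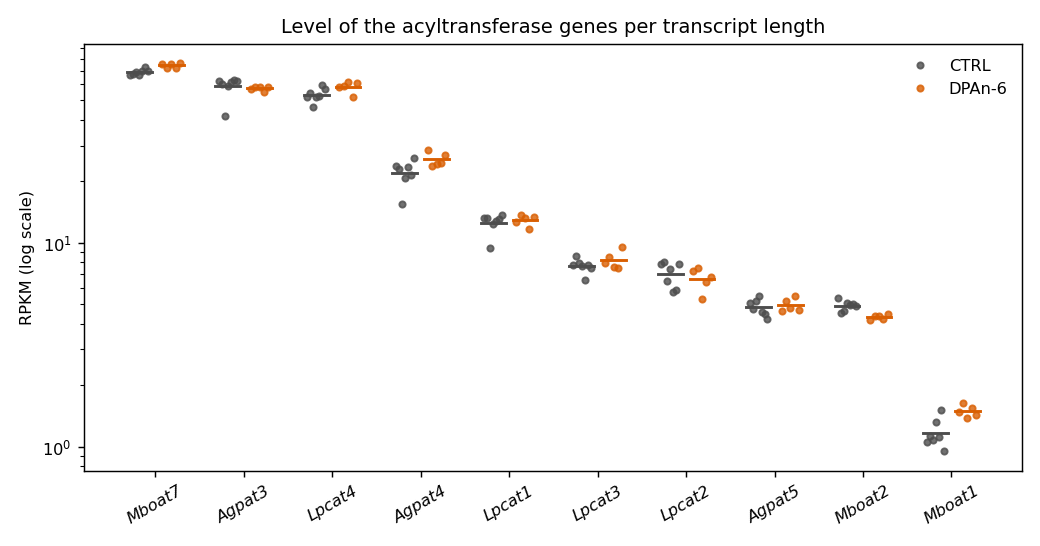
Level per transcript length (RPKM, log axis) of the 10 acyltransferase genes, ordered by their mean over 12 mice, with a point per mouse and a line at the group mean (grey, 7 CTRL; orange, 5 DPAn-6). The genes span from 1.30 RPKM (Mboat1) to 70.9 RPKM (Mboat7), a range far wider than the distance between the groups of any of them.

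Among the membrane-bound enzymes, Mboat2 was the gene whose groups did not overlap. Mboat2 (ENSMUSG00000020646; chromosome 12, 24830879 to 24964397, plus strand) encodes an enzyme that acylates lysophosphatidylethanolamine and lysophosphatidylcholine, mainly with oleic acid. In CTRL its lowest value was 4.94 log2 CPM, its median 5.07 and its highest 5.18, and in DPAn-6 the 5 mice had 4.83, 4.89, 4.89, 4.84 and 4.92, from 435 to 801 counts per mouse. Every DPAn-6 mouse was thus below every CTRL mouse, also when the library totals were scaled by TMM factors. Groups that do not overlap were found for 3.22% of all genes tested, and for 1.49% in this direction. The CTRL mice averaged 5.06 ± 0.08 log2 CPM (SD, n = 7) and the DPAn-6 mice 4.87 ± 0.04 (SD, n = 5). Mboat2 shares 107 exon bases with the noncoding gene 2900060N12Rik on the opposite strand.

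The log2 fold change of Mboat2 was -0.21 (standard error 0.06, 95% interval -0.34 to -0.08), a difference of -13.6% with an interval from -21.1% to -5.38%. Its exact permutation p was 0.00253, where 0.00126 is the smallest these groups allow. By edgeR's quasi-likelihood test the unadjusted p was 0.00374 and the adjusted p over all genes tested 0.105, so it did not pass. The adjusted p was 0.0253 by DESeq2, which called 3.91% of the genes it adjusted, and 0.0270 by edgeR without CTRL replicate 3, where 6.1% of all genes tested were called. In the 14-month mice only, the log2 fold change was -0.18 with an unadjusted p of 0.0824. Over all alternatives it ranged from -0.26 to -0.18 and its adjusted p from 0.0253 to 0.609.

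Mboat1 lay the other way. Mboat1 (ENSMUSG00000038732; chromosome 13, 30136489 to 30246717, plus strand) encodes a related enzyme that acylates lysophosphatidylethanolamine and lysophosphatidylserine. It was the most thinly measured of the 10 genes, with 48 to 110 counts per mouse. In CTRL its lowest value was 1.47 log2 CPM, its median 1.70 and its highest 2.14, and in DPAn-6 the 5 mice had 2.11, 2.26, 2.02, 2.17 and 2.06. Every DPAn-6 mouse was above the CTRL mean, and the 2 highest DPAn-6 mice were above every CTRL mouse.

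The CTRL mice averaged 1.75 ± 0.22 log2 CPM (SD, n = 7) and the DPAn-6 mice 2.12 ± 0.10 (SD, n = 5). For Mboat1 the log2 fold change was 0.34 (standard error 0.13, 95% interval 0.07 to 0.60), the largest estimate of the 10 genes, with an exact permutation p of 0.0101. The adjusted p by edgeR was 0.221 (unadjusted 0.0177). The unadjusted edgeR p was 0.119 with the 14-month mice alone and 0.125 when Ttr, the main transcript of choroid plexus, was a covariate, and both fits gave a log2 fold change of 0.28. Over all alternatives the log2 fold change ranged from 0.28 to 0.41.

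**Figure D2:**
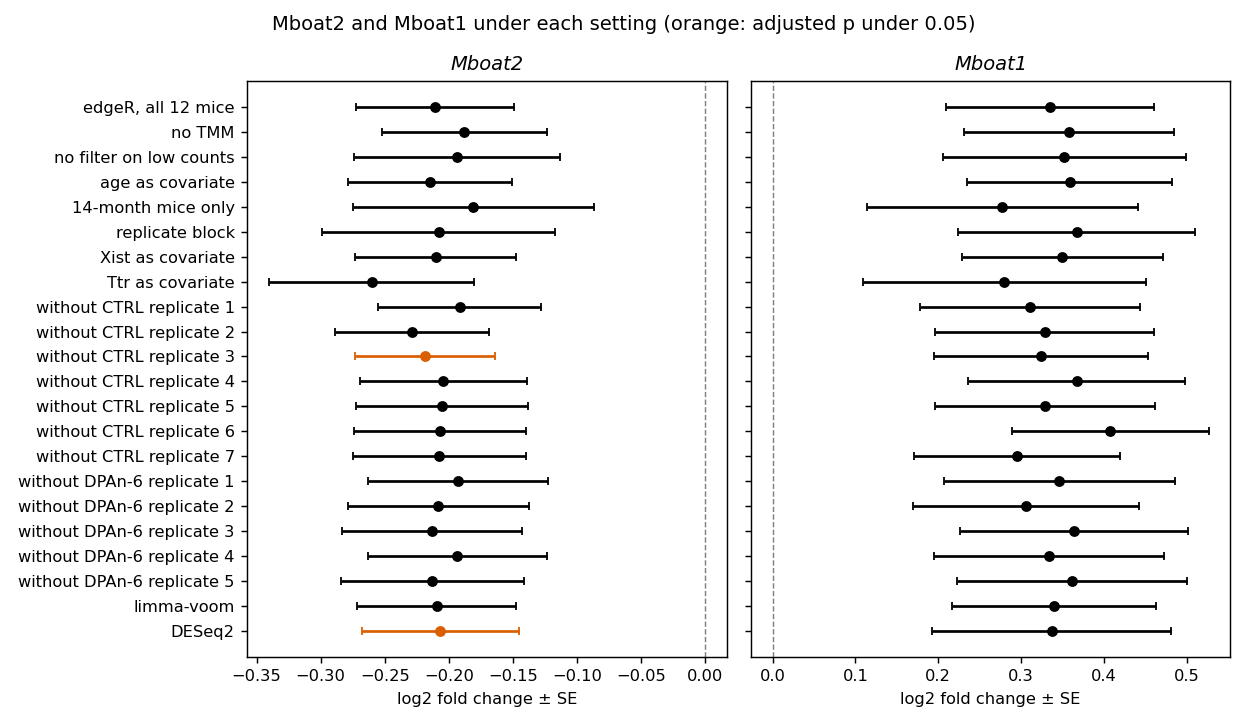
Log2 fold change (DPAn-6 against CTRL, point) with its standard error (bar) for Mboat2, left, and Mboat1, right, under the reported fit and each alternative, with orange where the adjusted p was under 0.05. All estimates of Mboat2 lay between -0.26 and -0.18 and all estimates of Mboat1 between 0.28 and 0.41, and 2 settings for Mboat2, DESeq2 and the fit without CTRL replicate 3, passed the threshold.

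Mboat7 (ENSMUSG00000035596; chromosome 7, 3677789 to 3693523, minus strand) encodes the enzyme that places arachidonic acid into phosphatidylinositol. Its values in CTRL were tightly grouped, with a lowest of 7.58 log2 CPM, a median of 7.62 and a highest of 7.71. The 5 DPAn-6 mice had 7.77, 7.70, 7.76, 7.69 and 7.77. All of these were above the CTRL mean and 3 were above every CTRL mouse. The averages were 7.62 ± 0.04 (SD, n = 7) for CTRL against 7.74 ± 0.04 (SD, n = 5) for DPAn-6, with an exact permutation p of 0.00631. The edgeR fit gave a log2 fold change of 0.09 (standard error 0.05, 95% interval -0.02 to 0.20) with an adjusted p of 0.462 and an unadjusted p of 0.103. The interval therefore covers changes from -1.40% to 14.7%. Mboat7 shares 277 exon bases with Tsen34 on the opposite strand. The strand setting of the counting is not known, so how reads in that stretch were counted is not known either.

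Lpcat3 (ENSMUSG00000004270; chromosome 6, 124663027 to 124704418, plus strand) encodes the main enzyme that puts arachidonic and linoleic acid into phosphatidylcholine. It had 4.13 ± 0.12 log2 CPM (SD, n = 7) in CTRL, with a median of 4.15 between 3.91 and 4.30, and 4.22 ± 0.14 (SD, n = 5) in DPAn-6, where the mice had 4.19, 4.28, 4.11, 4.10 and 4.44. The groups overlapped in most of their range. Its log2 fold change was 0.07 (standard error 0.09, 95% interval -0.11 to 0.26; adjusted p = 0.780 by edgeR), and it was 0.023 without DPAn-6 replicate 5 and 0.11 without DPAn-6 replicate 4. Lpcat3 shares 334 exon bases with Emg1 on the opposite strand.

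Agpat4 (ENSMUSG00000023827; chromosome 17, 12118704 to 12219645, plus strand) encodes a lysophosphatidic acid acyltransferase that is well expressed in brain. In CTRL its lowest value was 4.89 log2 CPM, in CTRL replicate 3, its median 5.46 and its highest 5.64. The 5 DPAn-6 mice had 5.77, 5.50, 5.55, 5.57 and 5.68, all above the CTRL mean and 2 above every CTRL mouse. The averages were 5.38 ± 0.24 (SD, n = 7) for CTRL against 5.61 ± 0.11 (SD, n = 5) for DPAn-6, with an exact permutation p of 0.0480 that was 0.0581 on TMM-scaled values and above 0.05 in 9 of the 12 tests that left out 1 mouse (0.139 without DPAn-6 replicate 1). By edgeR its log2 fold change was 0.20 (standard error 0.10, 95% interval -0.01 to 0.41), with an adjusted p of 0.376 and an unadjusted p of 0.0623.

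Agpat3 (ENSMUSG00000001211; chromosome 10, 78269178 to 78352489, minus strand) encodes an enzyme known to place docosahexaenoic acid into phosphatidic acid. In CTRL its median was 8.53 log2 CPM and its highest value 8.56, whereas CTRL replicate 3 had 7.97, and the DPAn-6 mice had 8.41, 8.45, 8.44, 8.35 and 8.44. CTRL replicate 3 was the only CTRL mouse below the DPAn-6 mice, and the other 6 were above them. With all mice the means were 8.44 ± 0.21 (SD, n = 7) and 8.42 ± 0.04 (SD, n = 5), the log2 fold change was -0.06 (standard error 0.08, 95% interval -0.23 to 0.12) and the exact permutation p was 0.946. Without CTRL replicate 3 the estimate was -0.12 (adjusted p = 0.119 by edgeR, unadjusted 0.015), and the exact permutation p was 0.00433. In that edgeR fit, 23.1% of all genes tested had an unadjusted p under 0.05. How many of all genes pass the exact test, or have groups that do not overlap, without that mouse was not computed.

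Agpat5 (ENSMUSG00000031467; chromosome 8, 18846277 to 18891361, plus strand) encodes a lysophosphatidic acid acyltransferase found at mitochondria. It had 5.69 ± 0.13 log2 CPM (SD, n = 7) in CTRL, from 5.51 to 5.88, and 5.73 ± 0.11 (SD, n = 5) in DPAn-6, from 5.64 to 5.89. The groups covered nearly the same range, and the log2 fold change was 0.01 (standard error 0.08, 95% interval -0.16 to 0.19).

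Lpcat1 (ENSMUSG00000021608; chromosome 13, 73467197 to 73516422, plus strand) encodes an enzyme known for making dipalmitoyl phosphatidylcholine, as in lung surfactant. Its values in CTRL ranged from 5.12, in CTRL replicate 3, to 5.65 log2 CPM with a median of 5.59, and in DPAn-6 from 5.42 to 5.65 with a median of 5.61. The groups overlapped, and the log2 fold change was 0.02 (standard error 0.08, 95% interval -0.16 to 0.19). Lpcat4 (ENSMUSG00000027134; chromosome 2, 112239468 to 112247111, plus strand) encodes an enzyme that acylates lysophosphatidylethanolamine and is rich in brain. It had 6.92 ± 0.11 log2 CPM (SD, n = 7) in CTRL, from 6.72 to 7.08, and 7.05 ± 0.10 (SD, n = 5) in DPAn-6, from 6.88 to 7.14. In 4 of 5 DPAn-6 mice Lpcat4 was above the CTRL mean. Its log2 fold change was 0.11 (standard error 0.07, 95% interval -0.04 to 0.25), with an adjusted p of 0.519 by edgeR (unadjusted 0.136). The exact permutation p was 0.0694. It became 0.0281 when CTRL replicate 6 was left out and 0.0212 when DPAn-6 replicate 4 was. Without any other single mouse it stayed above 0.05, from 0.0671 (without CTRL replicate 7) to 0.1515 (without DPAn-6 replicate 3).

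Lpcat2 (ENSMUSG00000033192; chromosome 8, 92855339 to 92919279, plus strand) encodes the enzyme of macrophages and microglia that also makes platelet-activating factor. It varied widely in both groups, from 4.02 to 4.50 log2 CPM in CTRL with a median of 4.38, and with 4.35, 4.40, 3.89, 4.18 and 4.26 in the DPAn-6 mice. The lowest mouse of all was a DPAn-6 mouse, but the others lay within the range of CTRL. The means were 4.30 ± 0.21 (SD, n = 7) and 4.22 ± 0.20 (SD, n = 5), with a log2 fold change of -0.11 (standard error 0.11, 95% interval -0.35 to 0.14; adjusted p = 0.749 by edgeR). Lpcat2 shares 287 exon bases with the antisense gene Gm45472, which had 1 to 7 counts per mouse.

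**Figure D3:**
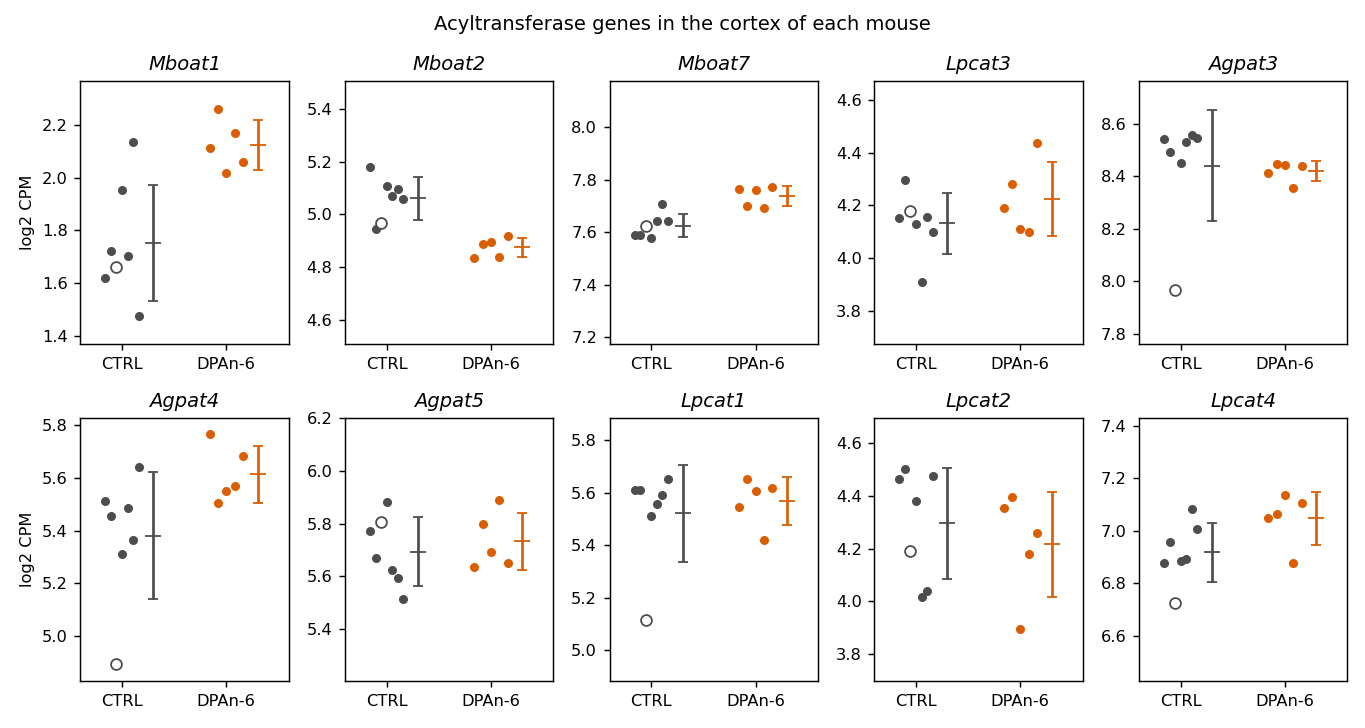
Log2 CPM of each acyltransferase gene in the cortex of each mouse (grey, 7 CTRL; orange, 5 DPAn-6), with the group mean and its SD beside the points, an open point for CTRL replicate 3, and axes that all span the same number of log2 units. In Mboat2 the DPAn-6 mice lie below all CTRL mice, and in Agpat3, Agpat4 and Lpcat1 the open point lies far below the other CTRL mice.

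By the exact permutation test over the 792 ways to split the mice, 4 of 10 genes (Mboat2, Mboat7, Mboat1 and Agpat4) had an unadjusted p under 0.05, against 15.8% of all genes tested. This count was 3 on TMM-scaled values. It lay between 3 and 4 when each mouse was left out in turn. Standard errors of the log2 fold changes ran from 0.05 (Mboat7) to 0.13 (Mboat1), so changes of the size of these errors were not detectable with these mice. Estimates well above their errors also did not pass by edgeR: -0.21 for Mboat2 (adjusted p = 0.105) and 0.34 for Mboat1 (adjusted p = 0.221).

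**Figure D4:**
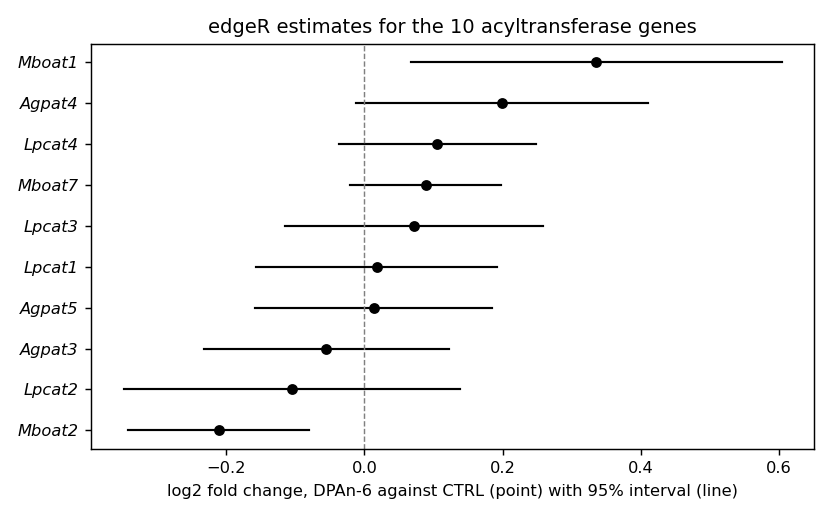
Log2 fold change (DPAn-6 against CTRL, point) with its 95% interval (line) from edgeR for the 10 acyltransferase genes, ordered by estimate. The intervals of Mboat2 (-0.34 to -0.08) and Mboat1 (0.07 to 0.60) lie on opposite sides of 0, and the other 8 cross it.

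CTRL replicate 3 stood apart from the other libraries as a whole. Its median correlation with the others over genes was 0.960, whereas that of the other libraries lay between 0.982 and 0.988, and its TMM factor was the lowest (0.961). It was kept in the values above. Without it, 1 of 10 genes (Mboat2) had an adjusted p under 0.05 by edgeR, against 6.1% of all genes tested. An unadjusted p under 0.05 was found for 4 of 10 (Mboat1, Mboat2, Mboat7 and Agpat3), against 23.1% of all genes tested.

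The ages were compared because the labels give 12 or 14 months for each mouse. With treatment in the model, 0 of 10 genes had an adjusted or unadjusted p under 0.05 between 14-month and 12-month mice by edgeR, against 0% and 1.78% of all genes tested. The term for a treatment difference that depends on age had an unadjusted p under 0.05 in 1 gene, Lpcat2, and in 4.26% of all genes tested. Lpcat2 was 4.47 log2 CPM on average in 12-month CTRL mice (n = 2) and 4.23 in 14-month CTRL mice (n = 5), whereas it was 4.04 in 12-month DPAn-6 mice (n = 2) and 4.34 in 14-month DPAn-6 mice (n = 3). The difference between the age-specific log2 fold changes was 0.50 (standard error 0.22; adjusted p = 0.905 by edgeR). After adjustment 0 of 10 genes passed this test, against 0.00637% of all genes tested.

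Within the groups, some of the genes varied together from mouse to mouse. Values were centred on their group mean, and each of the 45 pairs was tested over the 12 mice by permutation within groups with Benjamini-Hochberg adjustment. Lpcat1 and Agpat3 had a Pearson r of 0.956 (permutation p = 0.00075, adjusted p = 0.0338), and by ranks Spearman's rho was 0.825 (permutation p = 0.00228, adjusted p = 0.0513). CTRL replicate 3 was the lowest CTRL mouse in both genes. Without that mouse r was 0.812, and without it and DPAn-6 replicate 4, the 2 mice farthest from the median of Lpcat1, r was 0.682.

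In all, 1 of 45 pairs passed by Pearson r after adjustment and 7 had an unadjusted permutation p under 0.05. The share among pairs of other genes was not computed, so these counts are not a trait of the acyltransferase genes. By Spearman rho 1 pair passed as well, and it was another one, Agpat5 with Mboat7 (rho = -0.832, permutation p = 0.001, adjusted p = 0.045; r = -0.771, adjusted p = 0.0780). Agpat5 also ran against Lpcat4 (r = -0.737, permutation p = 0.0107, adjusted p = 0.0965; rho = -0.762). Lpcat4 ran with Agpat3 (r = 0.725, permutation p = 0.00245, adjusted p = 0.0551) and with Lpcat1 (r = 0.800, permutation p = 0.00415, adjusted p = 0.0623), and the r of the latter pair was 0.358 without CTRL replicate 3 and DPAn-6 replicate 4. The r of Agpat4 with Agpat3 was 0.856 over the 12 mice and 0.293 without CTRL replicate 3. Mboat1 and Mboat2, the genes with the smallest edgeR p-values between the groups, had an r of 0.119 within them. Values of 1 library share its total and its composition, so r between genes of the same libraries is not independent of them: on TMM-scaled values the r of Agpat5 with Mboat7 was -0.496.

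**Figure D5:**
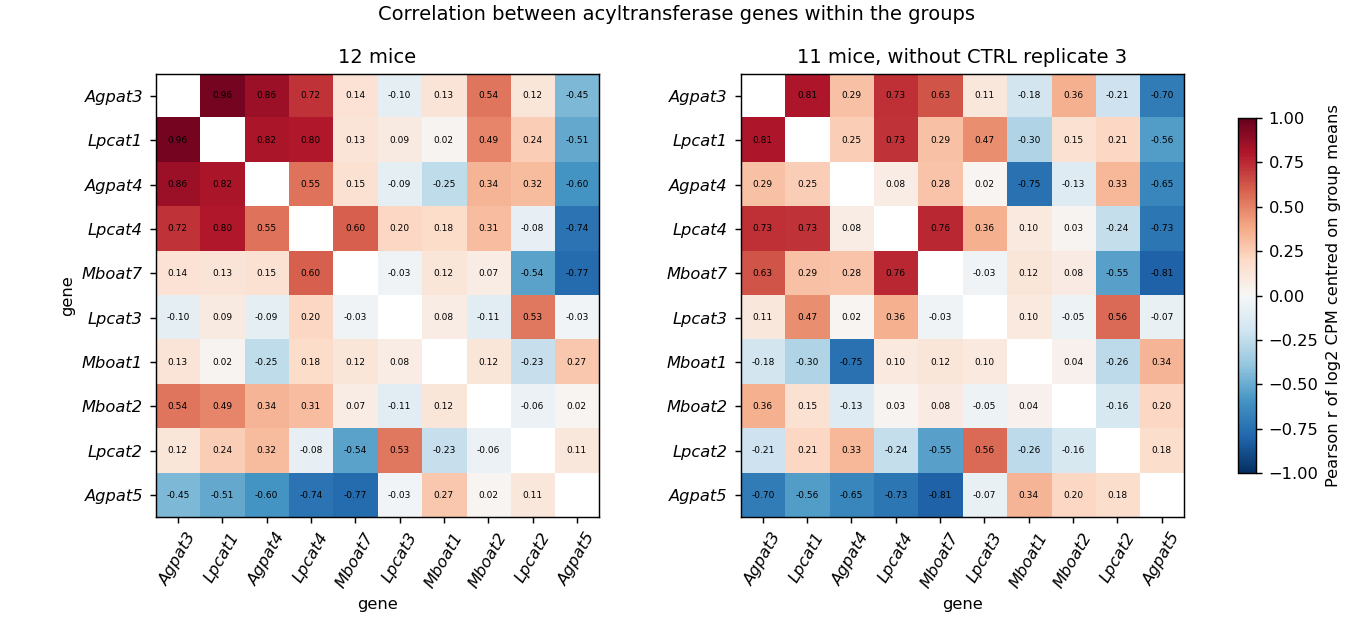
Pearson r between the acyltransferase genes over 12 mice, left, and over 11 mice without CTRL replicate 3, right, on log2 CPM centred on the group means (red, positive; blue, negative). The block of high values among Agpat3, Lpcat1 and Agpat4 thins without that mouse (Agpat3 with Agpat4 from 0.856 to 0.293), while the negative values of Agpat5 with Lpcat4 and Mboat7 are of like size in both panels.

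For each acyltransferase gene, the 3 genes with the highest r over the 12 mice, on the same centred values and among 15539 genes with a mean of at least 10 counts, are given as a description. The nearest to Lpcat2 were Heatr5a (r = 0.929), Csf2rb (0.928) and Csf3r (0.926), and the latter pair encode cytokine receptors of myeloid cells. The nearest to Mboat2 were Xpot (r = 0.917), Gon7 (0.904) and Sco1 (0.896), and those to Mboat1 were Mecom (0.852), Cdkn2aip (0.850) and Parn (0.809). Xpot exports transfer RNA from the nucleus and Sco1 delivers copper to cytochrome c oxidase. The nearest to Mboat7 were Dnajb12 (0.866), Prkaca (0.843) and Mrpl57 (0.838), and those to Lpcat3 were Gpr101 (0.922), Tnfrsf1a (0.885) and Smoc1 (0.884).

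Without CTRL replicate 3 the r of the genes nearest to Mboat7 was 0.854 to 0.896, but they ranked 20, 53 and 55 by r among all genes compared. The highest values of r belonged to the genes that were low in CTRL replicate 3. Agpat3 had Fbxo31 (0.993), Pcif1 (0.992) and Aacs (0.992), Lpcat1 had Uap1l1 (0.975), Ogdhl (0.974) and Plekho1 (0.973), and Agpat4 had Tagln3 (0.973), Il34 (0.973) and Lrrn2 (0.972). Without that mouse, r with Agpat3 was 0.870 for Fbxo31 and 0.909 for Pcif1, and r with Lpcat1 was 0.865 for Ogdhl and 0.914 for Uap1l1. The nearest genes of Agpat4 then had an r of 0.903 to 0.913. By r, the nearest genes of Agpat3 then ranked 6, 11 and 18, those of Lpcat1 4, 8 and 16 and those of Agpat4 4, 6 and 7. Lpcat4 had Reep2 (0.926), 2210408F21Rik (0.909) and Hpdl (0.900), and Agpat5 had Zbtb37 (0.902), Lgr4 (0.902) and Scoc (0.890). Without that mouse the nearest genes of Agpat5 ranked 51, 55 and 79 and those of Lpcat4 8, 25 and 29. The nearest genes of Mboat2 then ranked 1, 6 and 14, those of Mboat1 4, 6 and 10, those of Lpcat2 3, 4 and 7 and those of Lpcat3 1, 2 and 16.

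The other genes of phospholipid metabolism were counted in 4 lists. Of the other glycerophosphate and lysophospholipid acyltransferases, 9 of 10 were tested (Gpat2 was not), 0 were called by edgeR, and the median log2 fold change was 0.026. Gpam, which starts glycerolipid synthesis at mitochondria, had -0.27 (adjusted p = 0.146 by edgeR), and Gpat3, which does so at the endoplasmic reticulum, had 0.28 (adjusted p = 0.341 by edgeR). Agpat1, a lysophosphatidic acid acyltransferase, had 0.09 (adjusted p = 0.672 by edgeR). As among the 10 genes described here, members of this list lay in both directions and none was called.

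Of the 22 genes for head groups and backbone, 0 were called, and their median log2 fold change was 0.028. Cds1, which makes CDP-diacylglycerol for phosphatidylinositol, had 0.25 (adjusted p = 0.0935 by edgeR), Cept1, which makes phosphatidylcholine and phosphatidylethanolamine, had 0.33 (adjusted p = 0.212), and Lpin1, a phosphatidic acid phosphatase, had -0.14 (adjusted p = 0.313). Of the 16 genes that release, supply and activate fatty acids, 1 was called. This was Fabp7, a fatty acid binding protein of astrocytes and their precursors, which rose from 3.26 ± 0.21 log2 CPM (SD, n = 7) to 4.10 ± 0.21 (SD, n = 5), with a log2 fold change of 0.82 (standard error 0.12, adjusted p = 0.00429 by edgeR). The median over that list was 0.0076.

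Of the 6 genes for the receptor and the hydrolases of platelet-activating factor, the lipid that Lpcat2 can make, 0 were called and the median was 0.12. The receptor Ptafr, which is expressed by microglia, had a log2 fold change of -0.52 (standard error 0.15, adjusted p = 0.0921 by edgeR), from 2.25 ± 0.26 log2 CPM (SD, n = 7) to 1.76 ± 0.21 (SD, n = 5). The hydrolase subunit Pafah1b3 had 0.36 (adjusted p = 0.327) and the secreted hydrolase Pla2g7 0.12 (adjusted p = 0.565).

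Markers of microglia were lower in DPAn-6. All 12 microglia markers had a negative log2 fold change and 4 fell past the threshold, namely Csf1r, Tmem119, C1qb and C1qc, with -0.50, -0.77, -1.01 and -0.97 (adjusted p = 0.0282, 0.0286, 0.0430 and 0.0389 by edgeR). The summed level of all 12 microglia markers was 1269 to 1924 CPM in CTRL and 867 to 1271 in DPAn-6. Lpcat2, an enzyme of these cells, had -0.11 with the interval given above. In bulk tissue, fewer cells of a type and less RNA per cell cannot be told apart.

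Of the oligodendrocyte markers, 7 of 9 were higher and 0 were called (Mbp 0.22 and Mog 0.33), with a summed level of 5194 to 6882 CPM in CTRL and 6105 to 6949 in DPAn-6. All 6 inhibitory neuron markers were higher and 0 were called (Slc32a1 0.29, Vip 0.22 and Gad1 0.19), with 601 to 739 CPM in CTRL and 752 to 883 in DPAn-6. Of the astrocyte markers 6 of 8 were lower and 0 called (Slc1a2 -0.42, Slc1a3 -0.23 and Aldoc -0.21), at 7194 to 11228 CPM in CTRL and 6474 to 8048 in DPAn-6. Excitatory neuron markers lay at 6857 to 8481 CPM in CTRL and 6814 to 7215 in DPAn-6, with 0 of 6 called (Neurod2 0.25, Camk2a -0.21 and Tbr1 0.04).

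Of the endothelial markers, 4 of 6 were lower, 2 were higher and 0 were called (Flt1 -0.19, Ly6c1 -0.21 and Slco1a4 -0.14). Their summed level was 275 to 310 CPM in CTRL and 252 to 301 in DPAn-6. Markers of oligodendrocyte precursors lay at 247 to 315 and 228 to 282 CPM with 0 of 5 called (Pdgfra -0.22, Vcan -0.31 and Cspg4 -0.09). Choroid plexus markers lay at 12.2 to 1654 CPM in CTRL, with a median of 32.4, and at 7.01 to 22.4 CPM in DPAn-6, and of the 3 tested (Ttr -6.01, Kl -2.71 and Clic6 -2.41) 0 were called. No marker of these 8 lists was at 0 in all mice, and the markers of neurons and glia of cortex were present throughout. The part of these cell types in the values of the 10 acyltransferase genes was not tested. In the fit with Ttr as covariate, the log2 fold change of Mboat2 was -0.26 (adjusted p = 0.372 by edgeR) and that of Mboat7 0.09. Ttr itself had -6.01 between the groups, so that fit cannot tell choroid plexus content and treatment apart.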

How the data were processed

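RNA-Seq counts per gene were used as the authors deposited them, with no normalization. According to the labels and the methods, poly(A) mRNA libraries were prepared from total RNA with the KAPA kit, the reads were aligned to GRCm38 with STAR 2.5.3a, and reads were counted per gene. The strand setting of the counting is not given in the sources used here. The table held 50563 genes, 30214 of them with reads in some mouse, and 50339 were named by GENCODE M21, which also gave positions and transcript lengths. RPKM and log2 CPM (pseudocount 0.5) were computed here.

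The whole table was fitted in R 4.3.3 by edgeR 4.0.16 (TMM, filterByExpr by group, quasi-likelihood test, no covariate, Benjamini-Hochberg adjustment over 15688 genes, threshold 0.05). A two-sided exact permutation test was applied to single genes, and pairs with 100000 resamples in Python 3.11.15. The alternatives were limma 3.58.1 (voom, as in the methods of the study), DESeq2 1.42.0, no TMM, no filter, age, Xist or Ttr as covariate, the 14-month mice alone, a replicate block, and leaving out each mouse in turn. The test code was checked on simulated data with known changes before it was applied to the deposited counts.

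The 10 genes, the 4 lists of phospholipid metabolism and the 8 marker lists were chosen with earlier results of these data known. Of each list, genes with an adjusted p under 0.05 were named and otherwise the 3 with the smallest p, and for each of the 10 genes the 3 with the highest r. For 1 marker that this rule names, the value is not reported here. The transcript lengths, the promoter windows and their motifs were chosen after values were seen. Promoter windows were found for 9 of the 10 genes in RefSeq (GRCm38.p6). Protein sequences were not used here. All 12 libraries enter the reported values, and no 2 libraries agreed within sampling noise.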

Additional observations from a re-analysis of the deposited data

Results flagged for a closer look

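In CTRL replicate 3, the values of Agpat3 (7.966 log2 CPM) and Lpcat1 (5.117 log2 CPM) lay apart from those of the other CTRL mice, with a gap to the nearest mouse that was 0.822 and 0.74 of the group's whole range. These were 2 of the 20 groups checked for the 10 genes, and chance alone marks about 1 in 20 groups in this way. Both values come from the library with the lowest median correlation with the others (0.960).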

How the results depend on the processing

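Of the 10 acyltransferase genes, 0 had an adjusted p under 0.05 in 19 of 21 alternatives, and 1 (Mboat2) did by DESeq2 and without CTRL replicate 3, so that leaving out single mice gave 0 to 1. The count at an unadjusted p under 0.05 was 1 for the 14-month mice alone and when Ttr was a covariate, and 2 to 4 with single mice left out, the highest without CTRL replicate 3. Over all genes, 9 were called in the 14-month mice, 17 with Ttr, 673 by DESeq2 and 64 to 953 with single mice left out. Same-numbered mice did not deviate together (r from -0.125 to 0.22), so the numbers were not taken as pairs. With the replicate block, 0 of the 10 genes and 79 of all genes were called, and 3 of the 10 genes had an unadjusted p under 0.05. At an unadjusted p under 0.05, the share of all genes tested was 14.5% in the reported edgeR fit. It was 23.1% without CTRL replicate 3. For the other fits that share is not given here, so their counts of the 10 genes have no background. Of the 45 pairs, 0 passed on pooled values.

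The log2 fold change reversed for Lpcat1 with Ttr as covariate (-0.015) and without CTRL replicate 3 (-0.034), for Lpcat2 in the 14-month mice (0.078) and for Agpat5 in the 14-month mice (-0.045), with the replicate block (-0.045) and without CTRL replicate 6 (-0.0052), CTRL replicate 7 (-0.012) or DPAn-6 replicate 4 (-0.019). The exact permutation p was 0.664 for Lpcat1 without CTRL replicate 3 and 0.991 for Lpcat2 without DPAn-6 replicate 3, both with the sign of the difference reversed. With single mice left out, the log2 fold change ranged from -0.034 to 0.062 for Lpcat1 and from -0.019 to 0.044 for Agpat5, and the exact permutation p from 0.533 to 0.879 for Lpcat1 and from 0.316 to 0.991 for Lpcat2. The causes were not tested. The number of mice and, for Mboat1, its low counts limit what could be detected.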
